A study of Homo sapiens with 5 samples.

Results

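Translation initiation factors were followed in TF-1 cells, a human AML cell line, with and without knockout of *MTSS1*. Members were the protein-coding genes of the count table whose symbol begins with EIF and a digit, which gave 54 of 27328 genes. They fell into groups of 5 EIF1, 15 EIF2, 14 EIF3, 14 EIF4, 5 EIF5, and 1 EIF6 genes. The symbol alone decided membership, so the list also holds regulators such as eIF2 kinases and eIF4E-binding proteins, and factors that act mainly outside initiation. Control RNA came from 2 sgCtrl pools, whose sgRNA targets *renilla luciferase*, and knockout RNA from 1 pool for each of sgMTSS1_1, sgMTSS1_2, and sgMTSS1_3, numbered 1 to 3 here, and values are given in that order. A further sgCtrl pool and an sgMTSS1_4 pool, which the authors set aside as outliers, were not analysed here. All cells had been transduced with a lentiviral vector carrying Cas9, GFP, and the sgRNA. Each pool combined 4 single-cell clones, and in the knockout these clones had been selected for loss of the protein on immunoblots. A replicate is thus a pool, and each knockout pool carries a different sgRNA. P-values measure the spread between these pools only.

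Initiation brings a ribosome to the start codon of an mRNA. The small ribosomal subunit, loaded with eIF1, eIF1A, eIF3, eIF5, and the eIF2 complex that carries the initiator tRNA, is recruited to the capped 5′ end by eIF4F, scans to the start codon, and is joined there by the large subunit with the help of eIF5B. Cells set the rate of the process mainly at eIF2, through kinases that phosphorylate its alpha subunit and the exchange factor eIF2B, and at the cap, through eIF4E-binding proteins controlled by mTORC1. In blood cells, the heme-sensing eIF2 kinase encoded by *EIF2AK1* is known for matching globin synthesis to heme supply.

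Many mRNAs for ribosomal proteins and translation factors begin with a C and an unbroken run of pyrimidines, the 5′ terminal oligopyrimidine (TOP) tract, through which mTORC1 controls their translation. RefSeq start sites of GRCh38.p14 were matched for 45 of the 54 members. A C followed by at least 4 bases that are each C or T stood at the start of 10 of these (22.2%), against 5.14% of all 27305 genes in the promoter table. A gene was counted if any of its starts matched. The table was not filtered for protein-coding genes, whereas all members are protein-coding, so the shares are not over like sets. These starts are shown because they mark the members, among the 45 matched, that carry such a tract by sequence. *EIF2AK1*, *EIF2S2*, *EIF3A*, *EIF3CL*, *EIF3E*, *EIF3G*, *EIF3H*, *EIF3L*, and *EIF4EBP1* had no entry and could not be read for it. Each line gives 10 bases before and 20 bases after the start on the gene's own strand, with the pyrimidine run in capitals.
EIF2A (chr3:150546777-150546806, plus strand): cgagcggtttCTCTTTCCgggacaacatgg
EIF2D (chr1:206612446-206612475, minus strand): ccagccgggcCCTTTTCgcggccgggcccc
EIF2S3 (chrX:24054946-24054975, plus strand): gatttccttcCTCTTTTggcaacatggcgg
EIF2S3B (chr12:10505880-10505909, plus strand): gactttcttcCTCTTTTggcaacatggcgg
EIF3D (chr22:36529147-36529176, minus strand): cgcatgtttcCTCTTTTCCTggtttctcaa
EIF3F (chr11:7987327-7987356, plus strand): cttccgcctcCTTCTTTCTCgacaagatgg
EIF3K (chr19:38619178-38619207, plus strand): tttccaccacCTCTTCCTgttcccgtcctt
EIF3M (chr11:32583821-32583850, plus strand): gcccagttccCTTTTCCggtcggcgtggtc
EIF4A2 (chr3:186783567-186783596, plus strand): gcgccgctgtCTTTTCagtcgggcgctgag
EIF4B (chr12:53006446-53006475, plus strand): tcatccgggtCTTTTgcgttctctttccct

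RNA-seq libraries were made with a QuantSeq 3′ kit, so a read marks the 3′ end of an mRNA, and levels can be compared between genes without correction for length as far as their 3′ ends can be counted. Levels are given as CPM, a gene's count relative to a library size scaled by the TMM method of edgeR. Total counts were 2849979 and 3408827 in the control pools and 5442639 to 8854899 in the knockout pools, so every knockout library was deeper, and depth and condition cannot be told apart. With the biological coefficient of variation between pools at 32.2%, even 2-fold differences are hard to see in this design. In counts simulated with the spread of each gene, edgeR gave an adjusted p-value under 0.05 to 68% of 4-fold and 1% of 2-fold changes. Only a small part of the genes was changed in the simulation, whereas 23.3% of tested genes here had an unadjusted edgeR p-value under 0.05. Adjustment was therefore stricter in the simulation, and its shares are not the power in these data. A gene that was not called may still differ 2-fold. The mRNA of *MTSS1* itself was at 204 and 87.9 CPM in control and at 104, 139, and 49.9 CPM in knockout pools, and did not separate the groups (−0.58 on the log2 scale, adjusted p = 0.494 in edgeR's quasi-likelihood fit, used throughout), so it could not check the labels. Of 12 markers of TF-1 and progenitor cells, 11 were above 10 CPM in every library, and of 11 measured markers of T, B, monocytic, epithelial, and fibroblast cells, only *KRT8* was, at 11.2 to 25.3 CPM. The 11 markers of other cell types summed to 22.2 and 40.8 CPM in control and to between 18.0 and 26.2 CPM in knockout pools. Ribosomal protein genes took 7.55% and 9.30% of control counts and 17.7%, 11.9%, and 13.9% of knockout counts. Their part in the results on initiation factors was not tested.

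The 54 members together took 1.33% of the counts of control pool 1 (95% Wilson interval 1.32 to 1.34) and 1.32% of control pool 2 (1.31 to 1.33). They took 1.39% (1.38 to 1.39), 1.43% (1.42 to 1.44), and 1.51% (1.497 to 1.517) in knockout pools 1 to 3, so every knockout pool was above the control pools. The intervals hold counting error only. *EIF3K* alone gave 28254 of the 122659 member counts in knockout pool 1, against 6036 of 37856 and 7881 of 44944 in control pools. With *EIF3K* left out, a choice made after its values were seen, knockout pool 1 falls below both control pools. Knockout pools 2 and 3 stay above them. In bulk RNA, fewer cells expressing a gene and less of its RNA per cell cannot be told apart. Single members spanned a wide range in control pools. The most abundant were *EIF3A*, the largest eIF3 subunit, with a mean of 2200 CPM, *EIF3K*, an accessory subunit, with 2118 CPM, and *EIF5B*, the GTPase of subunit joining, with 1379 CPM. In all, 25 members had a control mean above 100 CPM and 46 above 10 CPM. Among the lowest was *EIF3L*, an eIF3 subunit, with 3 and 6 counts in the control and 7, 4, and 8 counts in the knockout libraries. It did not pass the low-count filter, so that 53 members were tested. *EIF1AY*, the copy of *EIF1AX* on chromosome Y, is counted among the tested members, and its level is not given here.

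Reads aligning to several places had been discarded by the authors, which lowers the counts of genes with near-identical copies. For each member, 50-base windows of the last 400 bases of its canonical transcript in GENCODE release 44 were therefore searched for in the rest of the genome. No window recurred for 40 of the 54 members, and over 20% recurred for 9. The share was 85.8% for *EIF4H*, 73.2% for *EIF3C* and for its neighbouring copy *EIF3CL*, 55.8% for *EIF4B*, 43.3% for *EIF5A*, 40.2% for *EIF3I*, 35.9% for *EIF5AL1*, 25.4% for *EIF4A2*, and 23.9% for *EIF3L*. *EIF4A1*, the major RNA helicase of eIF4F, has 13 pseudogenes named after it and was at 20.4 CPM in control pools although 1.99% of its windows recurred. It also shares its strand with the readthrough gene *SENP3-EIF4A1*. Levels of these genes may therefore be too low, and this part of the comparison was not tested.

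Of the 53 tested members, 3 were differentially expressed in the knockout, meaning that the adjusted p-value was under 0.05 and the level differed by more than 1 on the log2 scale. *EIF3J* and *EIF4A3* rose and *EIF3C* fell. This is 5.66% of the members against 5.18% of all 14391 tested genes, so the share of initiation factors called was close to that of genes at large. The same 3 members passed with the adjusted p-value alone. Split by direction, 2 members were called higher, where the share over all genes was 4.17%, and 1 lower, where it was 1.01%. The median log2-fold change was 0.13 over the members and −0.03 over all tested genes. Scaling by library size alone moved the 2 medians to −0.02 and −0.17, so the distance between them stayed about the same while the sign of the family median turned. All 3 knockout pools lay above both control pools for 19 members (35.8%), where this held for 22.2% of all tested genes, and below them for 11 members (20.8%), where the share over all genes was 19.2%. Before adjustment, 14 members had a p-value under 0.05, against 23.3% of all genes. Of these members 12 were higher (22.6% of those tested), against 14.1% of all genes, and 2 lower (3.77%), against 9.23%.

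**Figure D1:**
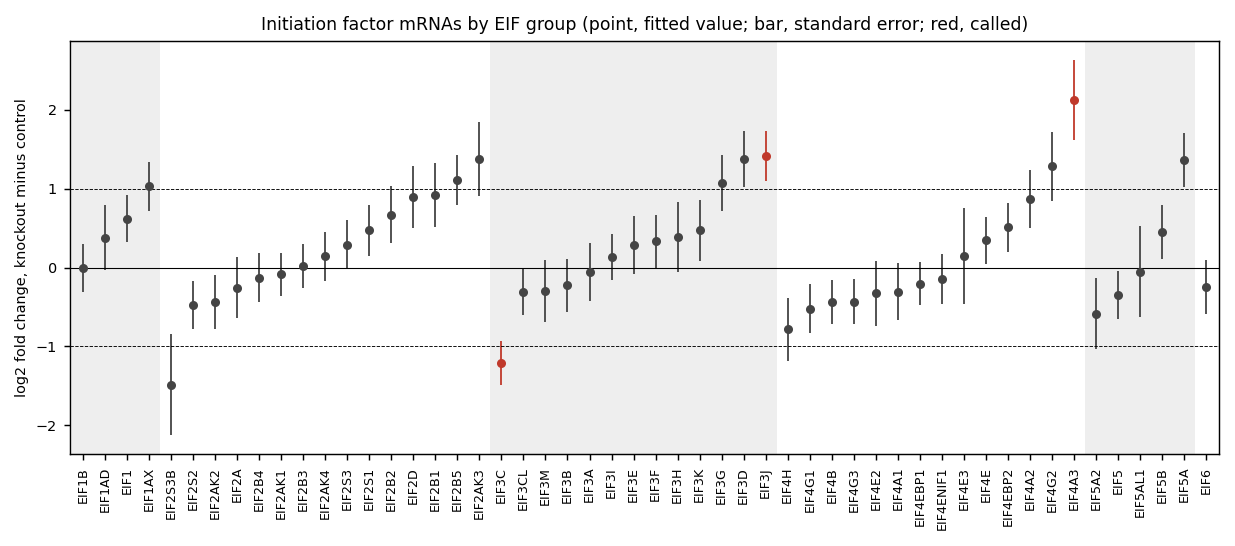
Fitted log2-fold change (knockout minus control, vertical axis) of 52 tested initiation factor genes, ordered within the EIF1 to EIF6 groups, with bars for the standard error and dashed lines at 1 and −1; *EIF1AY* is left out. The called genes, in red, are *EIF3C* at −1.21, *EIF3J* at 1.41, and *EIF4A3* at 2.13, and most other genes lie between the dashed lines.

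The groups differed little in their medians and much within themselves. The median log2-fold change was 0.38 over the 5 EIF1, 0.14 over the 15 EIF2, 0.28 over the 13 tested EIF3, −0.18 over the 14 EIF4, and −0.05 over the 5 EIF5 genes, and *EIF6* was at −0.25. The range within a group was wider than the range of the medians in every group with more than 1 gene: from −0.01 to 1.03 in EIF1, −1.49 to 1.37 in EIF2, −1.21 to 1.41 in EIF3, −0.78 to 2.13 in EIF4, and −0.59 to 1.37 in EIF5. Called genes were found in EIF3, with 1 higher and 1 lower, and in EIF4, with 1 higher. In EIF1, EIF2, EIF5, and EIF6 no gene was called in the edgeR fit of all pools with the standard filter. There 1, 5, 1, and 0 genes had a p-value under 0.05 before adjustment, where the share over all genes was 23.3%. DESeq2 called 1 gene in each of EIF1, EIF2, and EIF5, where it called 9.33% of all genes. Among the other alternatives, edgeR with no filter on low counts called *EIF2B5* and *EIF5A*, where it called 5.03% of all genes. The sign of the EIF4 median turned without control pool 1, to 0.012, and that of the EIF5 median turned without control pool 1 (0.38), knockout pool 2 (0.012), or knockout pool 3 (0.066), so neither median has a settled direction. The summed level of the EIF4 group was 2409 and 2152 CPM in control pools, against 2511, 2474, and 2665 CPM in knockout pools, all above the control. Without *EIF4G2*, left out after its values were seen, the sum was 1876 and 1954 CPM in control pools, against 1629.5, 1655, and 1699 CPM in knockout pools, all below the control. The EIF5 sum was also higher in every knockout pool, at 1933.5 and 1939 CPM against 2108, 2472, and 2471 CPM. Most of it was *EIF5B*, at 1297 and 1461 CPM in control and at 1681, 1968, and 2001 CPM in knockout pools. Of the other EIF5 genes, *EIF5A* was higher in every knockout pool, *EIF5* and *EIF5A2* were lower, and *EIF5AL1* overlapped. The EIF3 sum overlapped at 5021 and 6585 CPM against 8161, 6517, and 7411 CPM. Group medians are descriptions over genes that share libraries, and no test of a difference between groups was made.

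eIF3 is the largest initiation factor and holds the small ribosomal subunit, the mRNA, and eIF4F together. *EIF3J* (ENSG00000104131, chromosome 15, 44537125 to 44563029 on GRCh38), which encodes a loosely bound subunit that sits near the mRNA channel of the ribosome, was at 195 and 254 CPM in control and at 618, 622, and 555 CPM in knockout pools. All knockout pools were thus more than 2-fold above the higher control pool. The means were 225 ± 42.2 CPM (SD, n = 2) and 599 ± 37.8 CPM (SD, n = 3), a difference of 1.41 ± 0.32 on the log2 scale (standard error; edgeR adjusted p = 0.0379). The call was lost when knockout pool 1, 2, or 3 was left out (edgeR adjusted p = 0.0991, 0.107, and 0.127). The gene overlaps *SPG11* on the opposite strand, so its count is uncertain if strand was ignored.

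*EIF3C* (ENSG00000184110, chromosome 16, 28688558 to 28735727), which encodes a scaffold subunit of the eIF3 core and has a repeat elsewhere in the genome for 73.2% of its 3′ windows, fell. It was at 108 and 88.5 CPM in control and at 39.8, 41.2, and 46.8 CPM in knockout pools, with means of 98.3 ± 13.9 CPM (SD, n = 2) and 42.6 ± 3.70 CPM (SD, n = 3). The groups did not overlap, and the difference was −1.21 ± 0.28 on the log2 scale (edgeR adjusted p = 0.0408). *EIF3CL* (chromosome 16, 28379579 to 28403841), a copy of the gene on the opposite strand, was at 32.8 and 34.9 CPM in control and at 23.1, 28.0, and 30.8 CPM in knockout pools. Every knockout pool was below the control for this copy too, but it was not called (−0.31, edgeR adjusted p = 0.572). Counted together, an alternative chosen after seeing the data, the copies were at 141 and 123 CPM in control and at 62.9, 69.1, and 77.6 CPM in knockout pools, and the call was lost (−0.92, edgeR adjusted p = 0.0849). It was also lost with no filter on low counts (edgeR adjusted p = 0.0652), with libraries thinned to the smallest total (0.0723), without control pool 1 (0.0586), and without knockout pool 1, 2, or 3 (0.111, 0.136, and 0.138).

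*EIF3D*, a subunit that can itself bind the cap of certain mRNAs, was at 207 and 334 CPM in control and at 804, 610, and 695 CPM in knockout pools. The groups did not overlap, but the test missed the threshold (1.38 ± 0.35, edgeR adjusted p = 0.0547). *EIF3G*, an RNA-binding subunit, was at 45.6 and 24.7 CPM in control and at 87.3, 62.3, and 72.2 CPM in knockout pools, again without overlap and without a call (1.07, edgeR adjusted p = 0.110). *EIF3F* was at 17.8 and 18.2 CPM in control and at 28.8, 19.9, and 19.1 CPM in knockout pools, which lay just above. For the remaining tested subunits the pools of the groups overlapped. These include the most abundant subunits. *EIF3A* was at 1653 and 2747 CPM in control and at 2023, 2148, and 2153 CPM in knockout pools. *EIF3K* was at 1887 and 2349 CPM in control and at 3665, 2198, and 2954 CPM in knockout pools. *EIF3I*, at 215 and 193 CPM against 194, 229, and 248 CPM, and *EIF3M*, at 40.6 and 20.6 CPM against 33.7, 21.8, and 19.1 CPM, overlapped too. For *EIF3B*, the RNA-binding platform for the *EIF3G* and *EIF3I* proteins, the levels were 231 and 352 CPM in control pools, against 191, 250, and 307 CPM in knockout pools. *EIF3E* and *EIF3H* differed more between the control pools than between the group means. *EIF3H* was at 203 and 72.4 CPM in control and at 239, 150, and 150 CPM in knockout pools, and *EIF3E* at 183 and 94.5 CPM against 213, 135, and 159 CPM. Counts of subunits of the same complex thus ranged from 0.722 CPM in the lowest pool for *EIF3L* to 3665 CPM in the highest for *EIF3K*.

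**Figure D2:**
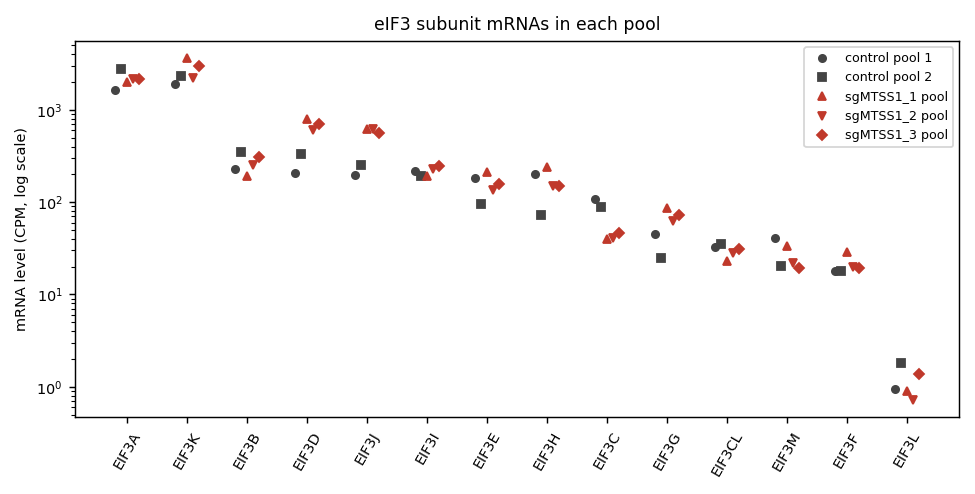
Level (CPM, log scale) of the 14 EIF3 genes in each of the 5 libraries, ordered by the control mean; grey symbols are control and red symbols knockout pools. *EIF3D*, *EIF3J*, *EIF3G*, and, narrowly, *EIF3F* have all red symbols above the grey ones, *EIF3C* and *EIF3CL* have them below, and *EIF3L* lies near 1 CPM, where 3 counts correspond to 0.389 to 0.938 CPM.

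In the EIF4 group, the gene that rose acts mainly outside cap-dependent initiation. *EIF4A3* (ENSG00000141543, chromosome 17, 80134369 to 80147151) encodes the RNA helicase that anchors the exon junction complex, a mark left on mRNA by splicing that promotes translation and guides nonsense-mediated decay. It was at 22.2 and 11.9 CPM in control and at 118, 39.7, and 65.1 CPM in knockout pools. Each knockout pool was above the control, and knockout pool 1 was the highest. The means were 17.1 ± 7.27 CPM (SD, n = 2) and 74.4 ± 40.1 CPM (SD, n = 3), a difference of 2.13 ± 0.51 on the log2 scale (edgeR adjusted p = 0.0452). The call was lost in limma-voom (adjusted p = 0.0563), and in edgeR without control pool 2 (0.110), knockout pool 1 (0.123), or knockout pool 3 (0.0843).

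The partners of *EIF4A3* in that complex were among 40 other genes of translation initiation and its control that were listed with the members, of which 39 were tested. *MAGOH* was at 90.05 and 74.8 CPM in control and at 427, 406, and 315 CPM in knockout pools, a rise of 2.21 ± 0.33 on the log2 scale (edgeR adjusted p = 0.0109). It passed in each of the 14 alternatives, with adjusted p-values up to 0.0454. *RBM8A*, whose protein pairs with that of *MAGOH*, was at 45.0 and 49.8 CPM in control and at 131, 94.6, and 114 CPM in knockout pools (1.26, edgeR adjusted p = 0.0447). The call for *RBM8A* was lost in 8 of 14 alternatives, including each in which a library was left out: the edgeR adjusted p-value was 0.0653 or 0.0577 without control pool 1 or 2, and 0.116, 0.0796, or 0.142 without knockout pool 1, 2, or 3. With the pool number as a block it was 0.0553. *CASC3*, the fourth core protein, was at 69.1 and 103 CPM in control and at 174, 203, and 156 CPM in knockout pools and missed the threshold (1.05, edgeR adjusted p = 0.0883). It is named here after its values were seen, because it completes the complex. *MAGOHB*, the near-identical copy of *MAGOH*, was at 27.8 and 23.2 CPM in control and at 35.8, 22.2, and 19.8 CPM in knockout pools, with overlapping groups. Of all tested genes, 4.17% were called higher, and 22.2% had each knockout pool above the control, as *EIF4A3*, *MAGOH*, *RBM8A*, and *CASC3* did. These genes were brought together with their values known, so their number is a description only.

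**Figure D3:**
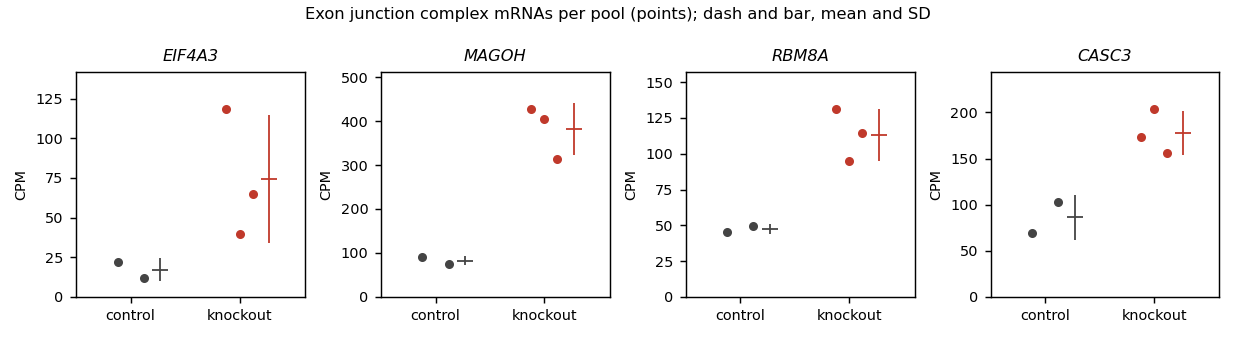
Level (CPM) of the 4 core exon junction complex genes in each pool (points), with the mean and SD of each group beside them. In each panel the 3 knockout pools lie above both control pools, and for *EIF4A3* knockout pool 1, at 118 CPM, lies apart from the others.

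Promoters of the called members and of *MAGOH* and *RBM8A* were read for 2 short sequences, the E-box CACGTG and the ETS-type sequence CCGGAAG, on either strand in the 250 bases before each RefSeq start. Members with the E-box were 11 of 45 (24.4%), against 7.73% of all genes in the table, and members with the ETS-type sequence 10 of 45 (22.2%), against 10.2%. As for the pyrimidine starts, any matching start of a gene sufficed, and the table was not filtered for protein-coding genes. *EIF4A3* has the E-box, *MAGOH* and *RBM8A* have the ETS-type sequence, and *EIF3J* and *EIF3C* have neither in this window. The 30 bases around each match follow, with the matching letters in capitals and written on the gene's own strand, where CTTCCGG is CCGGAAG on the other strand. CACGTG reads the same on both strands, and a match to either was counted once per promoter. These letters are a description and no evidence of binding.
EIF4A3 (chr17:80147232-80147261, minus strand): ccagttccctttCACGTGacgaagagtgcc
MAGOH (chr1:53238589-53238618, minus strand): gtcttgttgccaCTTCCGGgcgaagaggtt
RBM8A (chr1:145927587-145927616, minus strand): gccacagaaacaCTTCCGGtatctttccgc

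None of the 7 genes of the cap-binding complex eIF4F and its helpers was called, and their median log2-fold change was −0.44. *EIF4E*, the cap-binding protein, was at 30.02 and 28.3 CPM in control and at 41.6, 30.9, and 38.5 CPM in knockout pools, slightly above the control in each pool. *EIF4G1*, the scaffold of eIF4F, was at 944 and 847 CPM in control and at 517, 690, and 667 CPM in knockout pools, below the control in each. *EIF4G3*, its close relative, was at 138 and 103 CPM in control and at 88.2, 83.2, and 96.6 CPM in knockout pools. *EIF4B* and *EIF4H*, which stimulate the helicase eIF4A, were also lower in every knockout pool, at 183 and 156 CPM against 132, 129, and 115 CPM and at 17.5 and 15.8 CPM against 13.6, 6.14, and 9.05 CPM. *EIF4H* had the lowest value of the group (−0.78 ± 0.40, edgeR adjusted p = 0.280). *EIF4A2*, the other helicase paralogue, was at 130 and 69.1 CPM in control and at 233, 146, and 167 CPM in knockout pools. *EIF4A1* overlapped at 16.9 and 23.8 CPM against 13.9, 13.5, and 22.1 CPM.

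*EIF4G2* encodes DAP5, a relative of eIF4G that lacks the binding site for eIF4E. It was at 533 and 198 CPM in control and at 882, 819, and 966 CPM in knockout pools, so that the control pools differed 2.69-fold from each other. The difference of 1.28 ± 0.44 was not called (edgeR adjusted p = 0.120), and was 2.18 without control pool 1, where it was called (edgeR adjusted p = 0.0135), and 0.77 without control pool 2. The inhibitors of eIF4E showed opposite signs. *EIF4EBP1* was at 83.8 and 81.1 CPM in control and at 73.8, 64.3, and 76.2 CPM in knockout pools. *EIF4EBP2* was at 94.4 and 92.7 CPM in control and at 109, 120, and 170 CPM in knockout pools. In neither did the groups overlap, and neither was called. *EIF4E2*, which encodes a cap-binding repressor, was at 180 and 502 CPM in control and at 262, 306, and 246 CPM in knockout pools, so all knockout pools lay between the control pools. *EIF4ENIF1*, a protein that keeps eIF4E from translation, overlapped at 32.5 and 21.5 CPM against 24.3, 23.3, and 25.6 CPM, and *EIF4E3* was below 3 CPM throughout.

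The EIF2 group holds the complex that carries the initiator tRNA, its exchange factor, and the kinases that restrain it. For eIF2 itself, *EIF2S1*, the alpha subunit that the kinases phosphorylate, was at 59.4 and 51.3 CPM in control and at 100.4, 61.0, and 69.1 CPM in knockout pools. *EIF2S2*, the beta subunit, was at 565 and 606 CPM in control and at 480, 417, and 364 CPM in knockout pools. The 2 subunits thus lay on opposite sides of the control in every knockout pool, without a call for either. *EIF2S3*, the GTP-binding gamma subunit, overlapped at 139 and 87.0 CPM in control and at 129, 133, and 152 CPM in knockout pools. *EIF2S3B*, a copy of *EIF2S3* with a nearly identical start, had the lowest value of the group (−1.49 ± 0.64, edgeR adjusted p = 0.200), but on 12 and 7 counts in control and 5, 5, and 9 counts in knockout libraries.

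Among the 5 eIF2B subunits, *EIF2B5*, the catalytic one, came closest to a call. It was at 117 and 173 CPM in control and at 282, 323, and 332 CPM in knockout pools, with means of 145 ± 40.2 CPM (SD, n = 2) and 312 ± 26.6 CPM (SD, n = 3). The difference was 1.11 ± 0.32 on the log2 scale (edgeR adjusted p = 0.0772). *EIF2B1* and *EIF2B2*, of the regulatory part, were also higher in every knockout pool, at 8.75 and 5.36 CPM against 16.6, 10.7, and 12.7 CPM and at 37.8 and 21.5 CPM against 60.4, 40.4, and 40.4 CPM. *EIF2B3* and *EIF2B4* overlapped, the former at 113 and 127 CPM in control and at 137, 112, and 117 CPM in knockout pools, the latter at 69.1 and 109 CPM against 75.8, 78.9, and 89.8 CPM. The median log2-fold change over the 5 subunits was 0.67, and none was called.

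None of the eIF2 kinases was called. *EIF2AK1*, the heme-regulated kinase, was at 179 and 180 CPM in control and at 166, 161, and 180 CPM in knockout pools, with nearly equal levels throughout. *EIF2AK4*, which senses amino acid shortage, overlapped at 70.3 and 117 CPM against 105, 109, and 96.4 CPM, and *EIF2AK2*, which senses double-stranded RNA, at 162 and 97.2 CPM against 101, 115, and 71.2 CPM. *EIF2AK3*, the kinase of endoplasmic reticulum stress, had the highest value of the EIF2 group (1.37 ± 0.47, edgeR adjusted p = 0.121). It was at 2.19 and 3.58 CPM in control and at 6.36, 7.76, and 8.53 CPM in knockout pools, and rests on 7 and 12 counts in the control libraries. *EIF2D*, which can deliver tRNA without eIF2, was at 11.9 and 7.75 CPM in control and at 23.3, 13.9, and 17.4 CPM in knockout pools, and *EIF2A* overlapped at 119 and 60.8 CPM against 103, 63.4, and 59.7 CPM.

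The EIF1 genes act in scanning and in recognition of the start codon. *EIF1AX* was at 103 and 110 CPM in control and at 273, 184, and 198 CPM in knockout pools, with means of 107 ± 4.79 CPM (SD, n = 2) and 218 ± 48.1 CPM (SD, n = 3). It had the highest value of the group (1.03 ± 0.31, edgeR adjusted p = 0.0883) and was not called. *EIF1*, which guards against initiation at wrong codons, was at 178 and 158 CPM in control and at 216, 262, and 294 CPM in knockout pools, again without overlap. Its paralogue *EIF1B* had the lowest value, near 0 (−0.01, edgeR adjusted p = 0.994), at 41.0 and 32.2 CPM in control and at 42.8, 30.5, and 35.8 CPM in knockout pools. *EIF1AD*, related to eIF1A by its domain, overlapped at 21.6 and 11.3 CPM against 28.4, 15.5, and 20.01 CPM.

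In the EIF5 group, the paralogues of eIF5A, the protein that carries hypusine and helps ribosomes through difficult peptide bonds, differed in sign. *EIF5A* (chromosome 17, 7306999 to 7312463) was at 19.1 and 11.6 CPM in control and at 37.2, 37.4, and 44.2 CPM in knockout pools. The groups did not overlap, and the test missed the threshold (1.37 ± 0.34, edgeR adjusted p = 0.0513). Added to *EIF5AL1*, a copy at 13.8 and 2.68 CPM in control pools, against 8.43, 7.94, and 7.31 CPM in knockout pools, the difference was 1.01 (edgeR adjusted p = 0.153). *EIF5A* also overlaps *GPS2* on the opposite strand, so its count is uncertain if strand was ignored. The same limit holds for other members with a gene on the opposite strand, among them *EIF2B1*, *EIF2S2*, *EIF3G*, *EIF4A2*, *EIF4G2*, and *EIF5B*. *EIF5A2* had the lowest value of the group (−0.59 ± 0.45, edgeR adjusted p = 0.474), at 8.44 and 6.26 CPM against 6.10, 3.25, and 5.22 CPM. *EIF5*, which triggers GTP hydrolysis by eIF2, was at 596 and 458 CPM in control and at 376, 455, and 414 CPM in knockout pools. *EIF5B* was at 1297 and 1461 CPM in control and at 1681, 1968, and 2001 CPM in knockout pools, above the control in each pool. *EIF6*, which keeps the large ribosomal subunit from joining early, overlapped at 247 and 424 CPM in control and at 331, 240, and 276 CPM in knockout pools (−0.25 ± 0.34, edgeR adjusted p = 0.707).

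**Figure D4:**
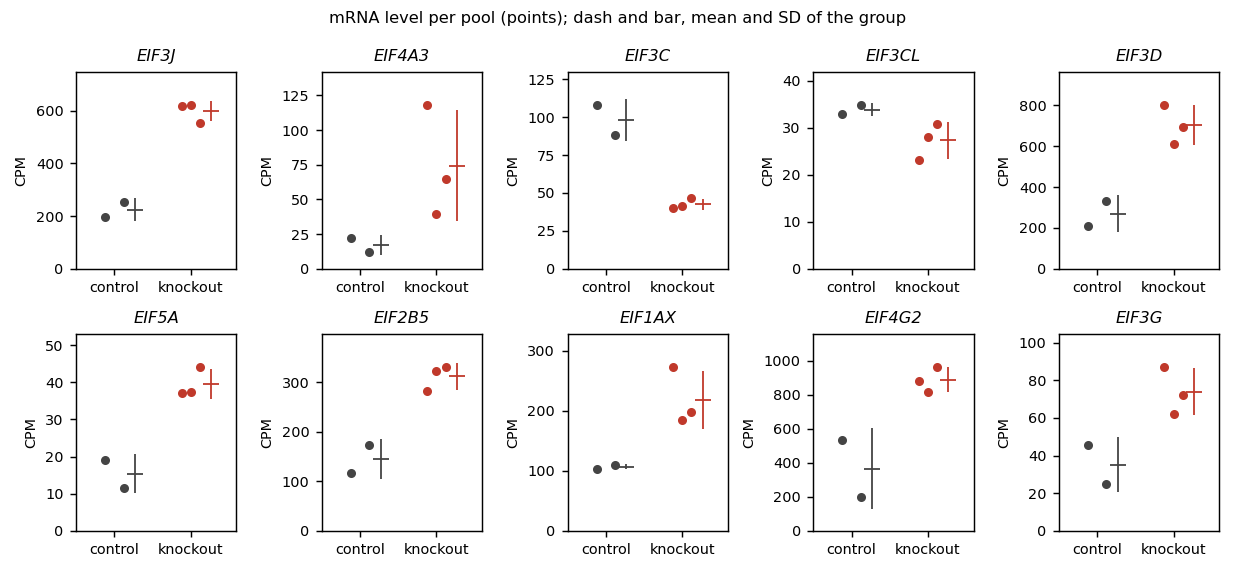
Level (CPM) in each pool (points) of the 3 called members, of *EIF3CL*, and of the 6 members that were called in at least 1 alternative fit, with the mean and SD of each group. *EIF3J*, *EIF4A3*, *EIF3D*, *EIF5A*, *EIF2B5*, *EIF1AX*, *EIF4G2*, and *EIF3G* have all knockout pools above both control pools; *EIF3C* and *EIF3CL* have them below.

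Across the family, *EIF3H*, *EIF4E2*, *EIF4G2*, and *EIF5AL1* lay more than 1 apart between control pools 1 and 2 on the log2 scale, with 0.5 CPM added, as did 3851 of all 14391 tested genes. The median absolute difference between the control pools was 0.59 on that scale for the members and 0.59 for all tested genes. The 10 members whose start carries a pyrimidine run, of the 45 with a matched start, had a median log2-fold change of 0.31, ranging from −1.49 to 1.38. Of these, 6 were above 0, beside 29 of the 53 tested members and 6952 of all 14391 tested genes. In the edgeR fit of all pools with the standard filter none of them was called. Among the alternatives that kept all pools, *EIF3D* was called in DESeq2, in limma-voom, and in edgeR with no filter on low counts. Its log2-fold change depended on the control pool, at 1.09 without control pool 1 and 1.79 without control pool 2. Of the 39 tested pathway genes, 3 were called higher and none lower (7.69%, beside 5.18% of all genes), and their median log2-fold change was −0.13. Before adjustment 8 higher and 7 lower genes had a p-value under 0.05, where the shares over all genes were 14.1% and 9.23%. DESeq2 called 4 higher and 1 lower, where the shares over all genes were 7.02% and 2.31%. Without control pool 1, edgeR called 3 higher and 3 lower, where they were 5.93% and 2.79%. The 3 pathway genes called in the edgeR fit of all pools were *MAGOH*, *RBM8A*, and *MLST8*. *MLST8*, a subunit of the mTOR complexes, had 2 counts in each control library and 67, 38, and 52 counts in the knockout libraries. Its ratio of knockout to control was 13.5 (exact 95% interval 5.19 to 50.3, counting error only; edgeR adjusted p = 0.0131). The gene overlaps *BRICD5* on the opposite strand, and its call was lost without knockout pool 1 (edgeR adjusted p = 0.0591). *DHPS*, which starts hypusine synthesis on eIF5A, was the listed gene that was not tested, with at most 5 counts in any library.

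With DESeq2, the method used in the study, 8 members were called, 15.1% of those tested against 9.33% of all genes. Of these, 7 were higher, with 7.02% of all genes, and 1 lower, with 2.31%. *EIF1AX*, *EIF2B5*, *EIF3D*, *EIF4G2*, and *EIF5A* were added to the 3 members called in edgeR. With the pool number as a block in edgeR, the same 3 members were called as without it, 2 higher and 1 lower, where 7.6% of all genes were called, 6.21% higher and 1.39% lower. Without knockout pool 1 or 3, no member was called in edgeR, where 111 (0.831%) and 191 (1.44%) of all tested genes were called. Without knockout pool 2, *EIF4A3* was the 1 member called, where 2.59% of all genes were. Without control pool 1 or 2, 5 or 4 members were called, where 8.73% or 5.04% of all genes were.

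**Figure D5:**
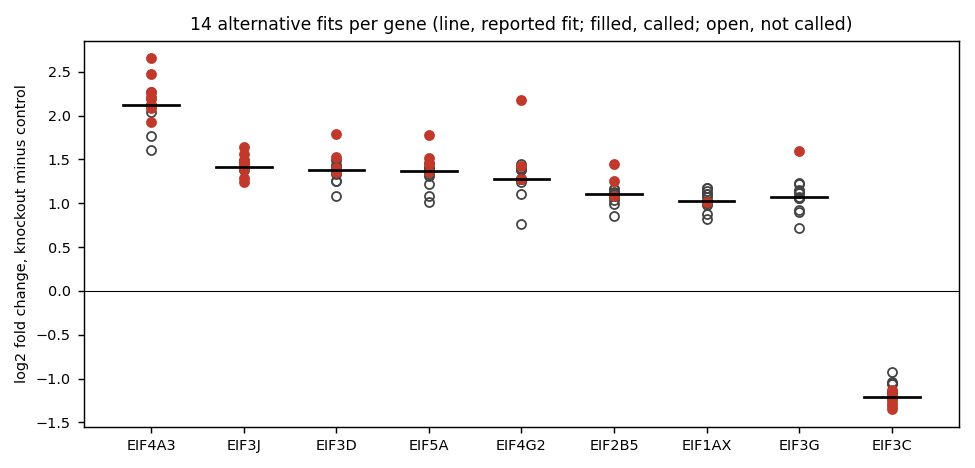
Log2-fold change (knockout minus control) of the 9 members called in at least 1 fit, under 14 alternative fits each (circles; filled red where called, open where not), with the reported value as a line. *EIF3C* stays between −1.35 and −0.92 and the 8 other genes stay above 0 in every alternative, while calls come and go.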

How the data were processed

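RNA was extracted from 5 pools of TF-1 clones. The authors prepared QuantSeq 3′ libraries, trimmed 50-base single-end reads with BBDuk, aligned them to GRCh38 with HISAT2 2.1.0, removed non-unique reads with SAMtools 1.10, and deposited raw read counts for each Ensembl gene. The counting program, annotation release, use of strand, and treatment of PCR duplicates are not given in the sources used here. Groups came from sample titles.

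edgeR 4.0.16 in R 4.3.3 was run on the counts: filterByExpr (minimum count 10, 14391 of 27328 genes kept), TMM factors (0.876 to 1.13), condition as the only term, and the quasi-likelihood test with Benjamini-Hochberg adjustment over all tested genes. Standard errors derive from the F statistic. Scripts were tested on simulated data. Gene symbols, types, and positions are those of GENCODE release 44 on GRCh38, and promoter sequences those of RefSeq. Windows were matched letter for letter, without mismatches, on the primary chromosomes. Intervals cover counting error only, since PCR copies of a molecule cannot be told from separate molecules.

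Members and lists were chosen with earlier results of these data known. Full statistics are given for members with an adjusted p-value under 0.05, for the highest and lowest log2-fold change in each EIF group, and for members called in an alternative, which were added after their values were seen. Alternatives were DESeq2 1.42.0, limma-voom (limma 3.58.1), other normalization factors and filters, thinned libraries, a block for the pool number, each library left out, and, added after seeing the data, copies counted together.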

Additional observations from a re-analysis of the deposited data

How the results depend on the processing

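In 14 alternatives, the 19 genes followed kept their direction except *EIF1B* and *EIF6*. *EIF1B*, near 0, turned to 0.14 with no filter on low counts and to 0.072 with at least 10 counts in every library, and ranged from −0.15 to 0.19 with a library left out. *EIF6* ranged from −0.57 to 0.22 with a library left out, and was positive without control pool 2. The number of called genes was 1343 with DESeq2 and 1374 with no filter, and 111 to 1349 with a library left out. For the members it was 8, 6, and 0 to 5, respectively. The cause was not tested. With library size alone, the median log2-fold change was −0.016 over the members and −0.32 over the EIF4 group. With no filter it was 0.28 over the members, 0.29 over EIF2, and −0.028 over EIF4. It was −0.26 over EIF4 in thinned libraries and 0.36 over EIF5 in limma-voom. With a library left out, it ranged from 0.080 to 0.33 over the members, 0.17 to 0.33 over EIF2, −0.18 to 0.012 over EIF4, −0.49 to 0.38 over EIF5, and −0.57 to 0.22 for *EIF6*, which is its group.

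Where a control pool was left out, the lone control library was assumed to vary like the knockout pools. With the pool number as a block (replicate block), 1094 genes and the same 3 members were called, *RBM8A* was no longer called, and the median was 0.25 over the members and 0.28 over EIF5. Differences between pools 1 and 2 in the 2 groups had a Pearson's r of 0.17 over tested genes, which are not replicates, and nothing in the sources used here says that the numbers pair the pools. Depth limits *EIF3L*, *EIF2S3B*, *EIF4E3*, *EIF2AK3*, *EIF5A2*, and *MLST8*, each below 10 CPM in every library.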
